A study of Mus musculus with 6 samples.

Results

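The gasdermin genes of mouse skin, together with the inflammatory protease Casp4 and the membrane-rupture protein Ninj1, were followed in ear skin with DNFB-induced contact dermatitis. The members were 8 genes chosen by symbol from the 19309 genes of the deposited expression table: Gsdma (Entrez gene 57911), Gsdma2 (76758), Gsdma3 (450219), Gsdmc (83492), Gsdmd (69146), Gsdme (54722), Casp4 (12363) and Ninj1 (18081). All 8 were found, and all 8 were among the 15317 genes with enough counts to be tested. The study holds 6 RNA-seq libraries from 3 C57BL/6 mice aged 6 to 8 weeks, each mouse giving its left ear after DNFB and its right ear after solvent. DNFB ears received 10 µL of 0.25% DNFB (dinitrofluorobenzene, a reactive hapten and strong contact allergen), and vehicle ears received 10 µL of the solvent, a mixture of 80% acetone and 20% olive oil, from day 6 for 6 days. Every mouse, and so the owner of every vehicle ear, had been sensitised on day 1 with 25 µL of 0.5% DNFB, so a vehicle ear is an unchallenged ear of a sensitised animal and not naive skin. The labels give the route of that first dose in conflicting terms, and no sex. The title of the series names MMP9, which is not among these genes, and no group with altered MMP9 is labelled.

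Gasdermins are proteins whose amino-terminal part forms pores in membranes once a protease has cut it free from the inhibitory carboxy-terminal part. The pores release interleukin 1 family cytokines and can end in pyroptosis, a lytic and inflammatory form of cell death. Casp4, which encodes the mouse protease also called caspase-11, cuts gasdermin D after it has sensed bacterial lipopolysaccharide in the cytosol, and Ninj1 breaks the plasma membrane open at the last step of lytic death. In skin the Gsdma genes are known from differentiated keratinocytes and hair follicles, while Gsdmd is known from leukocytes and epithelia.

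Libraries held 19556722 to 20336904 rounded counts, a range too narrow to set one group apart from the other in depth. On the first principal component of log2 CPM (85.4% of the variance) the DNFB ears of mice 1, 2 and 3 stood at −87.6, −81.3 and −44.6 and the vehicle ears at 74.7, 73.8 and 64.9, so the DNFB ear of mouse 3 lay closest to the vehicle ears. The counts carry decimals, and whole values were rarer in the DNFB ears of mice 2 and 3 (43.7% and 41.6%) than in the other libraries (65.5% to 67.3%). With the DNFB ear of mouse 1 alone against the 3 vehicle ears, all 8 genes kept their direction. The groups did not overlap in CPM for any of the 8, so this was fixed beforehand and says nothing on the whole-count difference. That setting has 1 DNFB library, the one farthest from the vehicle ears on the first component, so it holds no spread among DNFB ears, and the part of the whole-count difference in the results was not tested. Markers of the basal epidermis were abundant in every library, with the 8 basal keratinocyte markers summing to 6030 to 9411 CPM in DNFB ears and 7551 to 9491 CPM in vehicle ears, so the labelled tissue carries the markers of skin. Markers of muscle (1081 to 1625 CPM in DNFB ears, 2362 to 3853 CPM in vehicle ears) and of auricular cartilage (847 to 1228 CPM and 2204 to 2925 CPM) were present too. In bulk tissue of this kind, fewer cells of a type and less RNA per cell cannot be told apart.

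The family split in its response. By edgeR's quasi-likelihood test with Benjamini-Hochberg adjustment over all genes tested and a threshold of 0.05, 5 of the 8 genes were higher in DNFB ears (Gsdmc, Casp4, Gsdmd, Gsdme and Ninj1) and 3 were lower (Gsdma, Gsdma2 and Gsdma3). DNFB changed a large part of the transcriptome, and 51.3% of the genes tested passed the same threshold, 25.9% higher and 25.4% lower, so a call by itself does not set a gene apart. In each of the 8 genes the 3 DNFB ears did not overlap the 3 vehicle ears in CPM (read counts scaled to library size with TMM factors), as was also the case for 62.6% of all genes tested. It follows from this that within every mouse the DNFB ear lay on the same side of the vehicle ear for each gene. By size of log2 fold change Gsdmc ranked 526th, Casp4 587th and Gsdmd 733rd from the top of the 15317 genes, and Gsdma3 ranked 425th, Gsdma2 683rd and Gsdma 774th from the bottom.

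**Figure D1:**
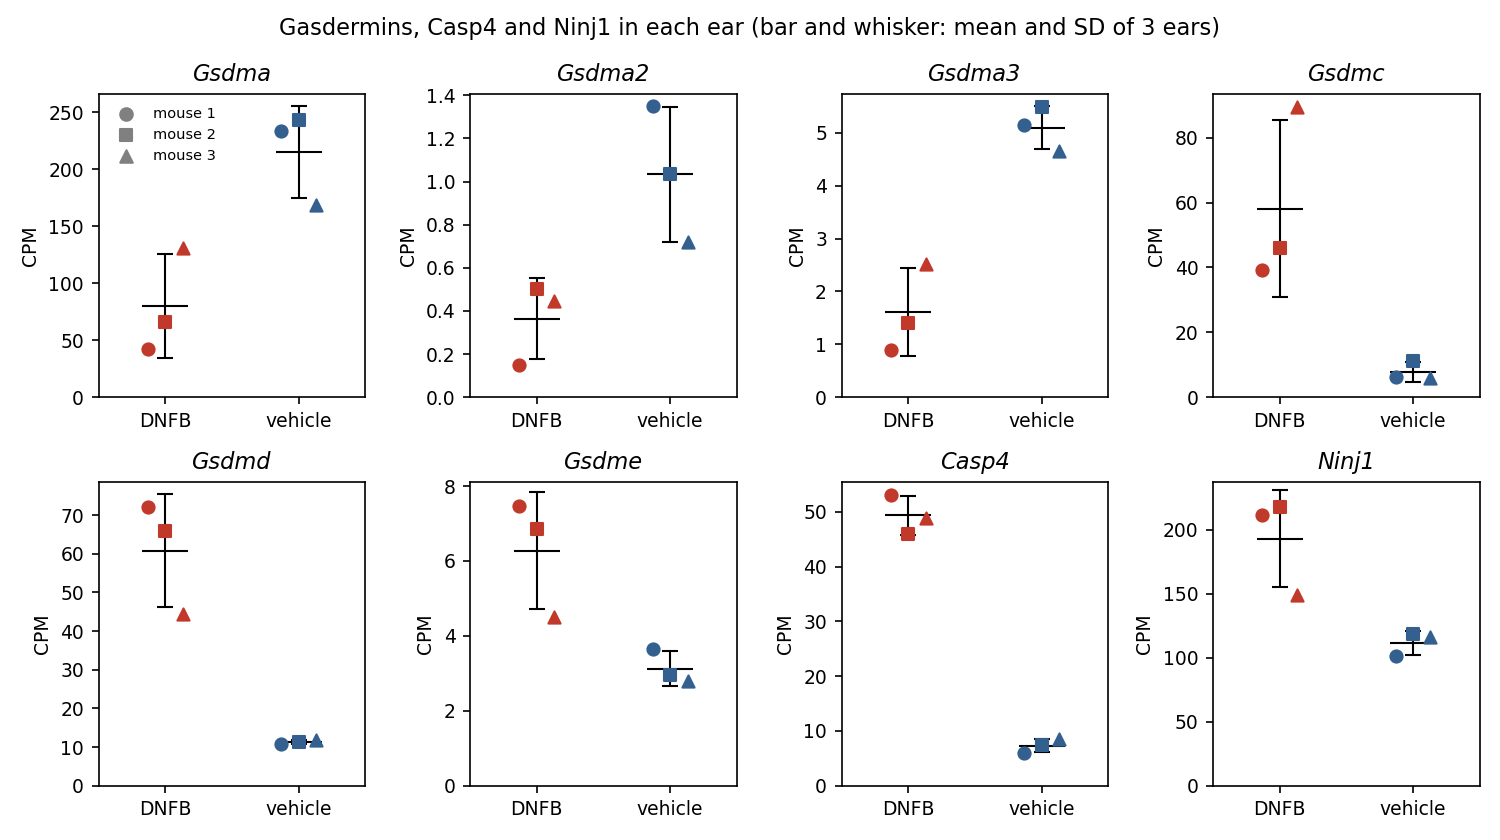
CPM of the 8 genes (y axes, each from 0) in the 3 DNFB ears (left, red) and the 3 vehicle ears (right, blue), with a marker shape for each mouse and a bar with whiskers for the mean and SD. In all 8 panels the DNFB points lie wholly above or wholly below the vehicle points, and mouse 3 has the highest DNFB value of Gsdma, Gsdma3 and Gsdmc but the lowest of Gsdmd, Gsdme and Ninj1.

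Casp4 gave the change with the smallest standard error. It measured 53.1, 46.0 and 48.9 CPM in the DNFB ears of mice 1, 2 and 3, against 6.04, 7.34 and 8.46 CPM in their vehicle ears. The DNFB ears lay within a narrow band, each more than 5 times the highest vehicle ear. The means were 49.4 ± 3.57 CPM in DNFB ears and 7.28 ± 1.21 CPM in vehicle ears (SD, n = 3 each), a 6.77-fold difference (log2 fold change 2.76 ± 0.15 SE, adjusted p = 4.36e-05 by edgeR). Within mice 1, 2 and 3 the log2 ratio of CPM was 3.11, 2.63 and 2.52. The call held without any single library or mouse.

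Gsdmd, which encodes the gasdermin that Casp4 and caspase-1 cut, rose 5.36-fold. The DNFB ears of mice 1, 2 and 3 had 72.2, 65.8 and 44.4 CPM, against 10.8, 11.4 and 11.8 CPM in the vehicle ears. Vehicle ears were nearly alike, and the spread was in the DNFB ears, where mouse 3 was lowest. The means were 60.8 ± 14.5 CPM in DNFB ears and 11.3 ± 0.502 CPM in vehicle ears (SD, n = 3 each; log2 fold change 2.42 ± 0.19, adjusted p = 0.000168 by edgeR). Gsdmd also held its call without any single library or mouse. Gsdmd and Casp4 stood close to each other in level per transcript length: the ratio of Casp4 to Gsdmd in TPM (a level scaled for transcript length) was 0.949, 0.907 and 1.44 in the DNFB ears of mice 1, 2 and 3 and 0.739, 0.824 and 0.935 in the vehicle ears, and these ranges overlap. Within every mouse the ratio was higher in the DNFB ear, a difference that was not tested.

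Gsdme, whose protein is cut by granzyme B and can turn apoptosis into lytic death, was far less abundant and doubled in level (2.01-fold). It had 7.48, 6.85 and 4.50 CPM in the DNFB ears of mice 1, 2 and 3, against 3.65, 2.95 and 2.79 CPM in the vehicle ears. The lowest DNFB ear, that of mouse 3, was above the highest vehicle ear by less than 1 CPM. The log2 fold change was 1.00 ± 0.24 (adjusted p = 0.0109 by edgeR), and it stayed past the threshold without any single library. With only 2 animals left it did not pass without mouse 1 (adjusted p = 0.0536) or without mouse 2 (adjusted p = 0.139).

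Ninj1 was the most abundant of the 8 genes in DNFB ears and showed the smallest change. Its values were 212, 218 and 149 CPM in the DNFB ears of mice 1, 2 and 3, against 101, 118 and 116 CPM in the vehicle ears. The groups did not overlap, although the DNFB ear of mouse 3 came near the vehicle ears, with a within-mouse log2 ratio of 0.36 there and of 1.07 and 0.88 in mice 1 and 2. The means were 193 ± 37.9 CPM in DNFB ears and 112 ± 9.43 CPM in vehicle ears (SD, n = 3 each), a 1.73-fold difference (log2 fold change 0.79 ± 0.16, adjusted p = 0.00620 by edgeR). It did not pass without mouse 1 (adjusted p = 0.0691) or without mouse 2 (adjusted p = 0.0806). Its relative Ninj2 had 2, 1 and 5 counts in DNFB ears and 6, 9 and 6 counts in vehicle ears. These were too few to clear the filter on low counts. The count ratio of DNFB to vehicle was 0.379 (95% counting interval 0.145 to 0.892). That interval covers counting error alone and leaves out differences between animals, so it does not establish a fall. With the filter removed, edgeR put Ninj2 at −1.37 on the log2 scale, short of the threshold (adjusted p = 0.13).

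Gsdmc had the largest fold change of the 8 genes. In humans its protein is cut by caspase-8. Gsdmc measured 39.1, 46.0 and 89.4 CPM in the DNFB ears of mice 1, 2 and 3, against 6.19, 11.3 and 5.87 CPM in the vehicle ears. Unlike Gsdmd, it was highest in the DNFB ear of mouse 3, whose vehicle ear was the lowest, and the within-mouse log2 ratios were 2.64, 2.02 and 3.91. The means were 58.2 ± 27.3 CPM in DNFB ears and 7.78 ± 3.03 CPM in vehicle ears (SD, n = 3 each), a 7.49-fold difference (log2 fold change 2.90 ± 0.40, adjusted p = 0.00121 by edgeR). The call held without any single library or mouse, and the log2 fold change was 2.30 without mouse 3.

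Mice carry further copies of this gene next to Gsdmc, and of these Gsdmc2 could be tested. Gsdmc2 had 2.97, 2.65 and 4.89 CPM in the DNFB ears of mice 1, 2 and 3, against 0.300, 0.517 and 0.625 CPM in the vehicle ears (log2 fold change 2.85 ± 0.38, adjusted p = 0.00105 by edgeR). As with Gsdmc, the DNFB ear of mouse 3 was the highest. Gsdmc4 summed to 24 counts over the DNFB ears and 3 over the vehicle ears, a ratio of 7.97 (95% counting interval 2.42 to 41.3), and Gsdmc3 to 9 counts and 1 count, a ratio of 8.96 (1.24 to 393). Pjvk, the gasdermin gene known from hearing loss, also summed to 9 counts and 1 count. Gsdmc3, Gsdmc4 and Pjvk were too low to be tested, and the intervals cover counting error only. The split among the C copies is uncertain for 50-base reads: in GENCODE M21 transcripts 16.4% of the 50-base windows of Gsdmc occur in another gene, as do 48.5% of those of Gsdmc2, 47.0% of Gsdmc3 and 39.0% of Gsdmc4.

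Gsdma, the gasdermin of differentiated keratinocytes, was the main one in vehicle ears and fell in DNFB ears. It had 42.5, 65.7 and 131 CPM in the DNFB ears of mice 1, 2 and 3, against 233, 243 and 168 CPM in the vehicle ears. Mouse 3 had the highest DNFB ear and the lowest vehicle ear, so its within-mouse log2 ratio of −0.36 was much smaller than the −2.45 and −1.88 of mice 1 and 2. The means were 79.6 ± 45.7 CPM in DNFB ears and 215 ± 40.5 CPM in vehicle ears (SD, n = 3 each), a fall of 2.70-fold (log2 fold change −1.43 ± 0.39, adjusted p = 0.0191 by edgeR). The call ended once the mouse 2 DNFB ear was left out (adjusted p = 0.0696), or the vehicle ear of mouse 1 (0.0587) or of mouse 2 (0.0648), and without both ears of mouse 1 (0.0691) or mouse 2 (0.185). With mouse 3 lacking its DNFB ear the log2 fold change was −1.99 (adjusted p = 0.000168).

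Gsdma3, known for mutations that cause hair loss in mice, fell 3.17-fold. It measured 0.892, 1.40 and 2.52 CPM in the DNFB ears of mice 1, 2 and 3, against 5.15, 5.48 and 4.66 CPM in the vehicle ears. The vehicle ears were tight, and the DNFB ears were in the same order as for Gsdma. The log2 fold change was −1.66 ± 0.35 (adjusted p = 0.00651 by edgeR) and passed without any single library, though not without both ears of mouse 2 (adjusted p = 0.108).

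Gsdma2 was near the limit of what could be tested, with 3, 10 and 9 counts in the DNFB ears of mice 1, 2 and 3 and 27, 20 and 15 counts in the vehicle ears. In CPM these were 0.149, 0.500 and 0.445 in DNFB ears and 1.35, 1.03 and 0.721 in vehicle ears. The groups did not overlap, and the lowest DNFB value was that of mouse 1. The log2 fold change was −1.49 ± 0.46 (adjusted p = 0.0312 by edgeR), and the call ended in the fit blocked by mouse (adjusted p = 0.0666) and without the DNFB ear of mouse 1 (0.0717) or 2 (0.0521), the vehicle ear of mouse 1 (0.114) or 2 (0.0840), or both ears of mouse 1 (0.185) or mouse 2 (0.128). Some reads of the A copies can also be shared: 8.26% of the 50-base windows of Gsdma, 10.1% of those of Gsdma2 and 5.92% of those of Gsdma3 occur in another gene, in each case another A copy. No window of Gsdmd, Gsdme, Casp4 or Ninj1 was shared.

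**Figure D2:**
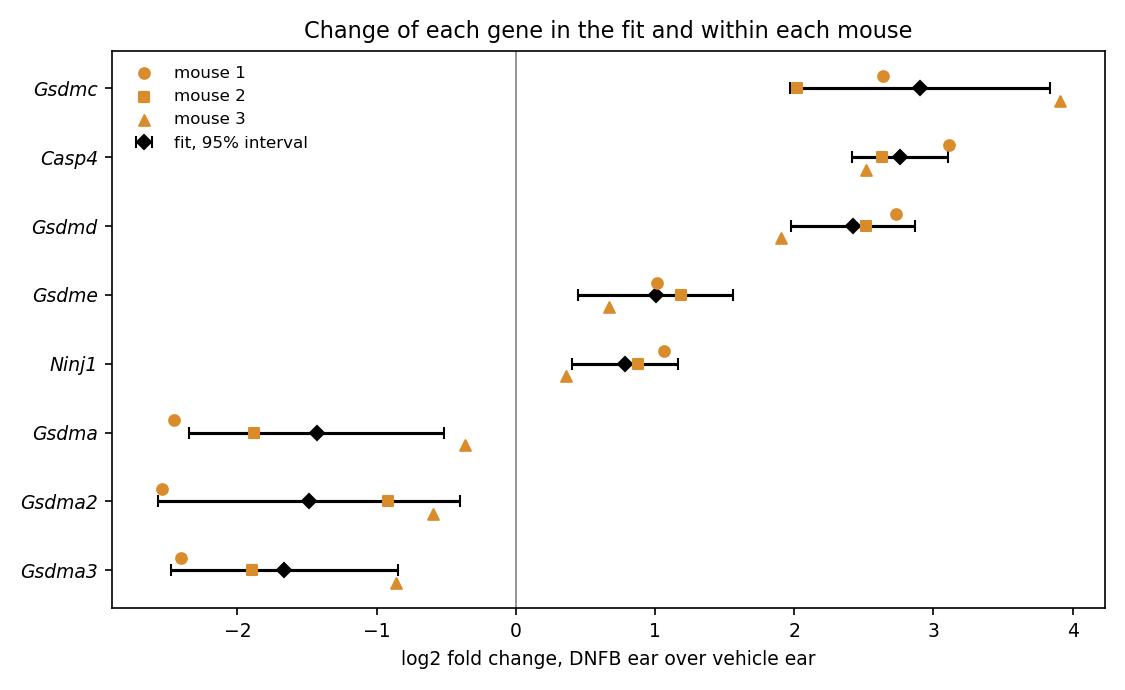
Log2 fold change of DNFB over vehicle (x axis) for each gene, with the edgeR estimate and its 95% interval in black and the ratio within each mouse in orange. None of the 8 intervals reaches 0, and mouse 3 lies at the end nearest 0 for 7 of the 8 genes and at the far end for Gsdmc.

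Promoter sequences were at hand for 4 of the 8 genes (RefSeq, build GRCm38.p6, 250 bases before to 50 after the annotated start), and they are shown because these genes moved in different directions. Casp4 is at chr9:5308599-5308898 (plus strand), Ninj1 at chr13:49187279-49187578 (plus strand), Gsdme at chr6:50261720-50262019 (minus strand) and Gsdma3 at chr11:98626099-98626398 (plus strand), each printed 5′ to 3′ on the strand of the gene. Capitals mark matches, on either strand, to the interferon-stimulated response element (GAAA, any 2 bases, GAAA) or to the consensus of the kappa B site, which was widened after these promoters were seen.
Casp4: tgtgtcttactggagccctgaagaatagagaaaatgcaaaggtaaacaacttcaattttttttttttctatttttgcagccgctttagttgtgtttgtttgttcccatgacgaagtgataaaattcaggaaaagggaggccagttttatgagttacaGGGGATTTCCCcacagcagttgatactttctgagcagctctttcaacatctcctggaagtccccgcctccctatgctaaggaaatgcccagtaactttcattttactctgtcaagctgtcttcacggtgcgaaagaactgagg
Ninj1: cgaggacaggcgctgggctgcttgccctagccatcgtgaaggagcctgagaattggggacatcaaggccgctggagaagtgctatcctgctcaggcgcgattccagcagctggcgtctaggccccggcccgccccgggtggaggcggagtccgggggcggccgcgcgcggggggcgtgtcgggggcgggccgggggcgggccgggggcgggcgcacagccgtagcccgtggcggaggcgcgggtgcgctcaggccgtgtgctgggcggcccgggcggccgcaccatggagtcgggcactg
Gsdme: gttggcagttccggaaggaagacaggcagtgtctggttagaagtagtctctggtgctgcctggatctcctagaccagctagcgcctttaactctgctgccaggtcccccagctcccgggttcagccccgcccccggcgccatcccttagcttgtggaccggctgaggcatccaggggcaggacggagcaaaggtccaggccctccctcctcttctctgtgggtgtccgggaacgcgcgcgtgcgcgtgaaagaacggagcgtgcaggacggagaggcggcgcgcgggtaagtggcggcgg
Gsdma3: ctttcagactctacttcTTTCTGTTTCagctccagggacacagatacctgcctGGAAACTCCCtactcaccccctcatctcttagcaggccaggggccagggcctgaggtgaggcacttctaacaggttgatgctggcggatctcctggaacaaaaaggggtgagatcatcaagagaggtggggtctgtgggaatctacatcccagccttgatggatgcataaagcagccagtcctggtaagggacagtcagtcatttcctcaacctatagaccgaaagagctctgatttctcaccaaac
The Casp4 promoter held 3 overlapping kappa B matches at −93 to −83 from the start, counting both strands (−104 to −94 from a second annotated start), and the Gsdma3 promoter held 1 at −197 to −188 and 1 response element at −233 to −224, both on the opposite strand. Bases just after the annotated start occurred in a GENCODE transcript of the gene for Casp4, Ninj1 and Gsdme but not for Gsdma3. The Gsdma3 positions therefore rest on the RefSeq start alone. Of all 32851 promoters of this length, 4.51% held a kappa B match and 3.44% the response element. Neither occurs in the windows of Ninj1 or Gsdme, and the STAT element TTCNNNGAA (8.30% of all promoters), the AP-1 element TGANTCA (7.81%) and TATAAA (13.6%) occur in none of the 4 windows. The letters are a description of these windows and not evidence of a bound factor. The 4 differ in composition: G and C made up 76.3% of the Ninj1 window with 37 CpG pairs and 65.7% of that of Gsdme with 24, against 51.7% with 2 in Gsdma3 and 42.0% with 5 in Casp4, and the median promoter had 52.7% and 7.

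The make-up of gasdermin transcripts differed between the groups more than their sum did. Over the 10 gasdermin genes of the table the summed TPM was 144, 166 and 230 in the DNFB ears of mice 1, 2 and 3 and 230.1, 228 and 179 in the vehicle ears, so the groups overlapped. The 3 A copies made up 25.2%, 36.5% and 50.6% of that sum in DNFB ears, against 92.1%, 90.8% and 89.0% in vehicle ears. Gsdmd made up 48.8%, 38.6% and 18.6% in DNFB ears and 4.56%, 4.65% and 6.83% in vehicle ears, and the C copies 21.5%, 21.6% and 29.3% against 2.06%, 3.62% and 2.79%. These shares had no test of their own. The ratio of Gsdmd to Gsdma in TPM was 1.98, 1.09 and 0.376 in the DNFB ears of mice 1, 2 and 3 and 0.0509, 0.0526 and 0.0790 in the vehicle ears.

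**Figure D3:**
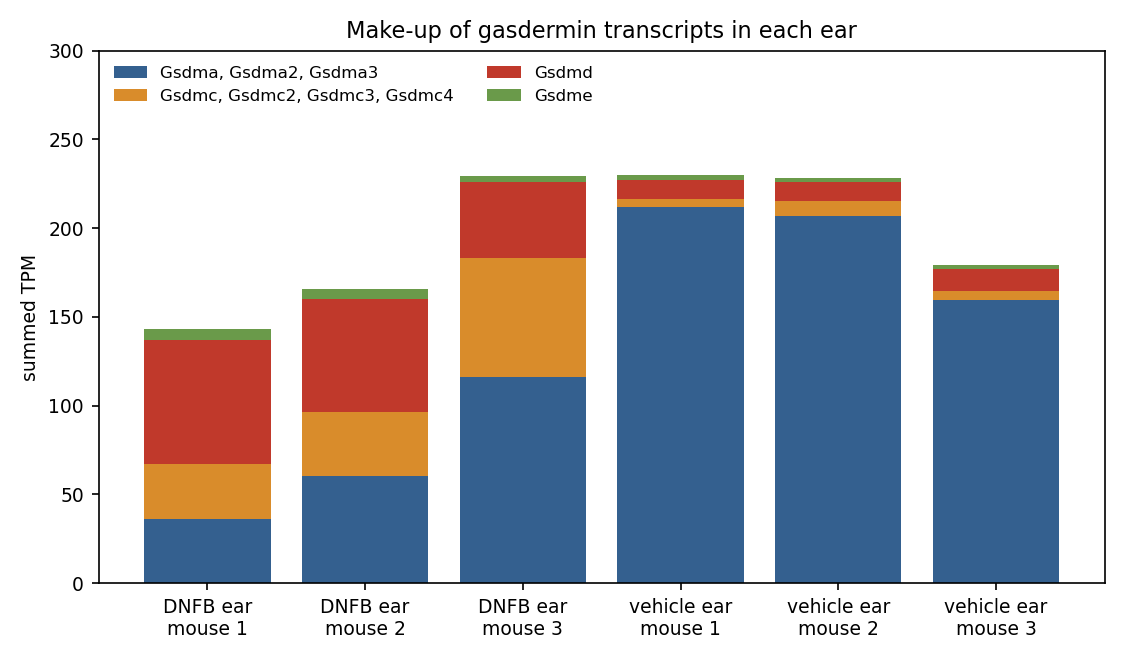
Summed TPM of gasdermin genes (y axis, from 0) in the 3 DNFB ears and the 3 vehicle ears, stacked by gene group; Pjvk, under 1 TPM in every ear, is left out. The A copies (blue) fill most of the vehicle bars at 89.0% to 92.1%, while Gsdmd (red) and the C copies (orange) take a large part of the DNFB bars.

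In TPM the order of the levels also differed. In DNFB ears Ninj1 was highest (293 ± 59.3 TPM), followed by Gsdma (69.2 ± 40.1), Casp4 (62.0 ± 4.20), Gsdmd (58.9 ± 14.3) and Gsdmc (41.6 ± 19.2), then Gsdme (4.94 ± 1.29), Gsdma3 (1.32 ± 0.754) and Gsdma2 (0.390 ± 0.191; SD, n = 3 each). The values of Gsdma, Casp4, Gsdmd and Gsdmc in these ears overlapped from one neighbour to the next, so their order is not settled. In vehicle ears Gsdma (188 ± 28.5 TPM) and Ninj1 (172 ± 17.3) overlapped at the top. Below them came Gsdmd (11.1 ± 0.974) and Casp4 (9.31 ± 1.91), which overlapped, then Gsdmc (5.57 ± 1.89), whose highest ear equalled the lowest of Casp4 at 7.76 TPM, Gsdma3 (4.10 ± 0.206), Gsdme (2.47 ± 0.352) and Gsdma2 (1.06 ± 0.297), with no overlap between neighbours in these last 4.

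Cell type markers moved in the same samples, and their part in these results was not tested. Over all genes tested 51.3% passed the threshold, 25.9% higher and 25.4% lower, so a marker count near those shares does not set a list apart. Beside the fall of the A copies, 9 of 10 upper epidermis markers were lower and none higher, with Krt1, named after its value was seen, the exception (log2 fold change 0.33, adjusted p = 0.206), and they summed to 3839, 6313 and 8365 CPM in the DNFB ears of mice 1, 2 and 3, against 19711, 16636 and 15062 CPM in the vehicle ears. The log2 ratio of that sum within mice 1, 2 and 3 was −2.36, −1.40 and −0.85, the same order over the animals as for Gsdma and Gsdma3. That order is not particular to these markers, since the DNFB ears took it on the first principal component too, with mouse 3 nearest the vehicle ears. Sebaceous gland markers were lower in 7 of 10 cases and none higher (2180 to 4059 CPM in DNFB ears, 9588 to 10290 CPM in vehicle ears). Within mice 1, 2 and 3 the log2 ratio of their sum was −2.20, −1.94 and −1.24, also in that order, while that of the hair follicle markers was −2.80, −3.22 and −0.08. Of the 10 hair follicle markers tested 5 were lower and none higher, but the vehicle ears differed widely among themselves (16.6 to 28.4 CPM in DNFB ears, 30.0 to 177 CPM in vehicle ears), and Krt73, Krt31 and Krt33a were at 0 in at least 1 library. Basal keratinocyte markers overlapped between the groups, with 2 of 8 lower and none higher.

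Beside the rise of Gsdmc, all 9 markers of activated keratinocytes were higher (6223 to 7532 CPM in DNFB ears, 587 to 816 CPM in vehicle ears), and the log2 ratio of their sum within mice 1, 2 and 3 was 2.93, 3.22 and 3.65. Beside the rise of Gsdmd, Casp4 and Ninj1, all 11 neutrophil markers were higher (1352 to 3209 CPM in DNFB ears, 52.6 to 92.5 CPM in vehicle ears), as were all 11 monocyte and macrophage markers (3384 to 5408 CPM in DNFB ears, 957 to 1085 CPM in vehicle ears) and all 10 T and NK cell markers tested (555 to 805 CPM in DNFB ears, 327 to 367 CPM in vehicle ears). S100a8 and S100a9 are on both the neutrophil and the activated keratinocyte lists. The within-mouse log2 ratios of the summed macrophage markers were 2.50, 2.14 and 1.64 for mice 1, 2 and 3, and those of Gsdmd were 2.73, 2.52 and 1.91. Neutrophil markers fell in the same order (5.69, 4.89 and 4.68), as did the DNFB ears in distance from the vehicle ears on the first principal component. The order is thus not particular to macrophage markers. T and NK cell markers gave 1.27, 1.29 and 0.60. Mast cell markers were higher in 5 of 7 cases and summed to 855 to 896 CPM in DNFB ears and 570 to 644 CPM in vehicle ears, dendritic and Langerhans cell markers were higher in 5 of 9 and lower in 2, and endothelial markers were higher in 3 of 6. Fibroblast markers were higher in 2 of 7 and lower in 2, while all 5 adipocyte and all 7 muscle markers and 4 of 5 cartilage markers tested were lower. All genes tested were higher in 25.9% and lower in 25.4% of cases, and the fibroblast counts lie near those shares. Of the defining markers only Ncr1 of NK cells and Matn1 of cartilage, besides the hair keratins, were at 0 in any library.

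**Figure D4:**
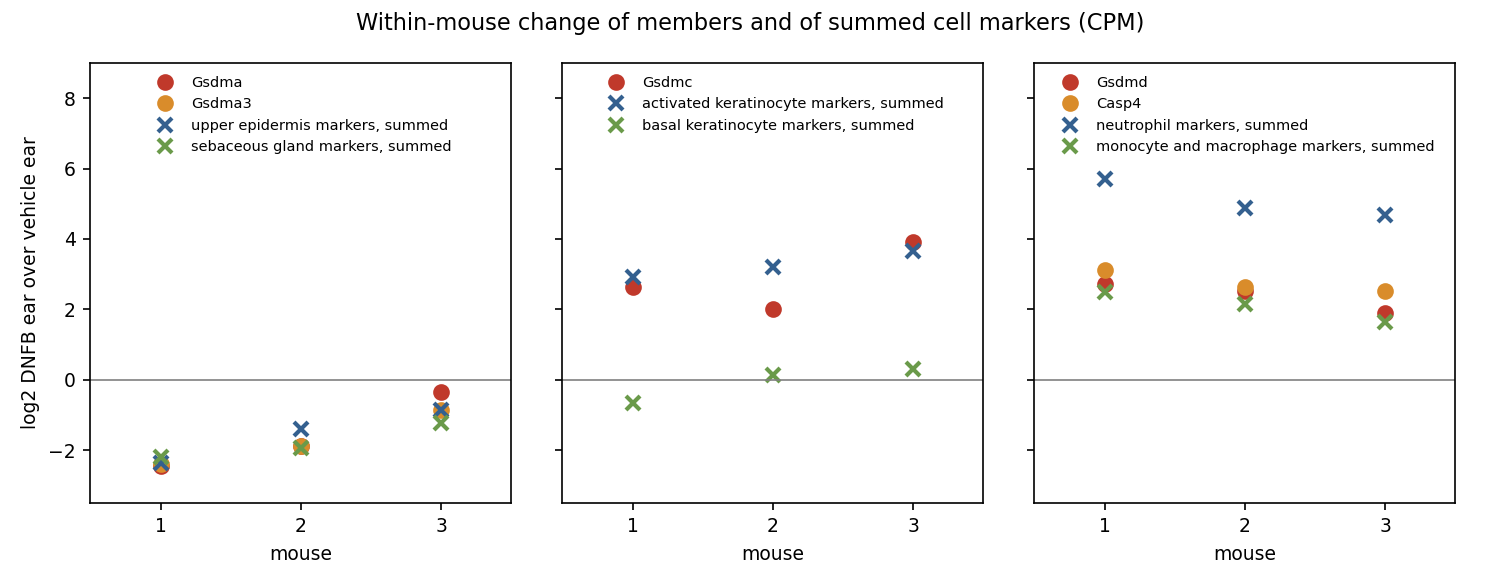
Log2 ratio of the DNFB ear over the vehicle ear of the same animal (y axis) in mice 1, 2 and 3 (x axis) for Gsdma and Gsdma3 (left), Gsdmc (middle) and Gsdmd and Casp4 (right), as circles, with the summed CPM of marker lists as crosses. Gsdma, Gsdma3 and the upper epidermis and sebaceous gland markers were all nearest 0 in mouse 3. Gsdmd, Casp4 and the neutrophil and macrophage markers were all smallest there, while Gsdmc was largest there.

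The genes with the most similar pattern over the 6 libraries were taken from 12356 named genes, by the root mean square difference of log2 CPM after each gene was centred on its own mean. They are a description with no test. For Gsdma they were Tgm5 (0.063 log2 units apart), a transglutaminase of the cornified envelope, Stx19 (0.070) and Sdr42e1 (0.071). For Gsdma3 they were Elovl4 (0.036), which makes the very long fatty acids of the skin barrier, Sec14l4 (0.040) and Scel (0.054), the gene of the cornified envelope protein sciellin. For Gsdma2, with its low counts, the nearest was the barrier protein gene Flg, at 0.17, followed by Acot5 and Car11, each 0.21 apart. Gsdmd was followed most closely by Cyrib (0.050), Adgrg3 (0.082) and Gla (0.086). Casp4 was closest to the interferon-induced helicase gene Ddx60 (0.088) and to the necroptosis genes Mlkl (0.10) and Ripk3 (0.10). Near Gsdme were Tk1 (0.080), a gene of nucleotide supply for DNA synthesis, and Lrch4 (0.086). Ninj1 was nearest to Uap1l1 (0.046), Pid1 (0.057) and Impa2 (0.059). Gsdmc had no near neighbour on this scale, with Gsta4 at 0.27, Tmprss11g at 0.34 and Ccl19 at 0.37.

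The genes listed as acting before gasdermins were mostly higher. The lists used here were chosen with earlier results of these data known, so their counts are a description only. Of 16 inflammasome sensors and adaptors 14 could be tested, and 10 were higher and 3 lower (median log2 fold change 1.94, against −0.02 over all genes tested). Of all genes tested 25.9% were higher and 25.4% lower. The sensor Nlrp3 averaged 77.6 ± 37.0 CPM in DNFB ears and 0.881 ± 0.244 CPM in vehicle ears (log2 fold change 6.45 ± 0.52, adjusted p = 0.000184 by edgeR). Mefv, which encodes the sensor pyrin, rose by 4.49 and Nlrp1b by 2.94 on the log2 scale. The 3 lower genes were chosen for naming after their values were seen: the keratinocyte gene Nlrp10 (log2 fold change −2.31, adjusted p = 0.00210), Nek7, which is needed for NLRP3 activation (−0.55, adjusted p = 0.00381), and Pycard, the adaptor ASC that links sensors to caspase-1 (−0.31, adjusted p = 0.0290). The call of Pycard ended in the fit blocked by mouse (adjusted p = 0.103) and without the DNFB ear of mouse 1 (0.0737) or 2 (0.115), or with mouse 1 (0.0725) or mouse 2 (0.0906) lacking its vehicle ear. Dpp8, a protease that restrains NLRP1, did not pass (−0.15, adjusted p = 0.218).

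A list of 10 proteases held those known to cut a gasdermin, not always one that mice have, or to start pyroptosis. Of these 9 could be tested, with 7 higher, 0 lower and a median log2 fold change of 1.36. Whether any of them cut a gasdermin in these ears was not tested. The shares over all genes tested were 25.9% higher and 25.4% lower. Gzma and Gzmb, granzymes of cytotoxic lymphocytes, rose by 7.04 ± 0.73 SE and 7.03 ± 0.43 SE on the log2 scale. Vehicle ears of mice 1, 2 and 3 held few counts, 3, 6 and 2 of Gzma and 16, 6 and 22 of Gzmb. The size of these ratios is therefore imprecise. Casp1, the inflammasome protease, averaged 33.4 ± 4.84 CPM in DNFB ears and 10.8 ± 1.69 CPM in vehicle ears (log2 fold change 1.62 ± 0.16, adjusted p = 0.000409 by edgeR). Its increase stands beside the 2.76 of Casp4, and the difference between them was not tested. Casp12 had a log2 fold change of 0.37 and an adjusted p of 0.0915, which was 0.0445 when the mouse 2 vehicle ear was left out.

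Genes of the interferon route that raises and targets caspase-11 were higher in 15 of 16 cases and none was lower (median log2 fold change 2.39), beside 25.9% higher and 25.4% lower over all genes tested. The GTPase gene Gm12250, whose protein is known as Irgb10, rose by 6.01 on the log2 scale, from only 9, 6 and 12 counts in the vehicle ears. The guanylate-binding protein genes Gbp2 and Gbp5, whose proteins open vacuoles to expose lipopolysaccharide, rose by 4.18 and 3.88. Ifngr1, a chain of the interferon gamma receptor, did not pass (0.48, adjusted p = 0.0964, or 0.0470 in the fit blocked by mouse and 0.00671 without the DNFB ear of mouse 3). Irf1 and Irf2, transcription factors known to act on gasdermin D and caspase-11 genes, were chosen for naming after their values were seen and rose by 3.31 and 1.39 (adjusted p = 5.35e-05 and 0.000515).

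The genes of interleukin 1 family cytokines and alarmins did not share a direction. Of 7 genes, 2 were higher and 2 lower (median log2 fold change −0.10), which is near the shares over all genes tested (25.9% higher and 25.4% lower). Il1b averaged 801 ± 350.2 CPM in DNFB ears and 3.71 ± 1.73 CPM in vehicle ears (log2 fold change 7.75 ± 0.57), and the alarmin Il33 rose by 3.07. Il18, chosen for naming after its values were seen, fell by 0.88 on the log2 scale (adjusted p = 0.00109). Il1f6, the older symbol of Il36a in the table, had a log2 fold change of −1.11 (adjusted p = 0.0394) that passed in the full set and once the mouse 3 DNFB ear was left out (−1.70, adjusted p = 7.68e-05), while without any other single library the adjusted p was 0.0621 to 0.120. Hmgb1 did not pass (−0.10, adjusted p = 0.468).

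Genes that limit the pores did not share a direction. Over all genes tested 51.3% passed, 25.9% higher and 25.4% lower. Of 17 genes of membrane repair and pore limitation 3 were higher and 5 lower (median log2 fold change −0.11). Serpinb9, which inhibits granzyme B, rose by 1.65, whereas the ESCRT-III subunit gene Chmp4c fell by 1.49 and Gpx4, which removes lipid peroxides, fell by 0.70 on the log2 scale. Pdcd6ip, an ESCRT partner gene, did not pass (0.20, adjusted p = 0.137). Among the higher genes the calls of Chmp4b (0.30, adjusted p = 0.0307, or 0.114 in the fit blocked by mouse and 0.0635 to 0.0870 with any 1 library left out other than the mouse 3 DNFB ear) and Serpinb1a (0.66, adjusted p = 0.0154, but 0.0562 or 0.0530 when the vehicle ear of mouse 1 or of mouse 3 was left out) did not hold in every fit. Of 12 genes whose products modify gasdermin D or its activation 4 rose and 0 fell, with a median log2 fold change of 0.07: Irak4, a kinase of the Toll-like receptor route, was up by 1.26, the kinase gene Ripk1 by 0.95 and the palmitoyltransferase gene Zdhhc7 by 0.40 on the log2 scale. The fourth, Lamtor3, was at 0.30 (adjusted p = 0.0343, or 0.0994 in the fit blocked by mouse and 0.0513 to 0.112 with any 1 library left out other than the mouse 3 DNFB ear). Chmp4b, Serpinb1a and Lamtor3 were named after their values were seen. Zdhhc5, another palmitoyltransferase gene, did not pass (−0.03, adjusted p = 0.783).

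**Figure D5:**
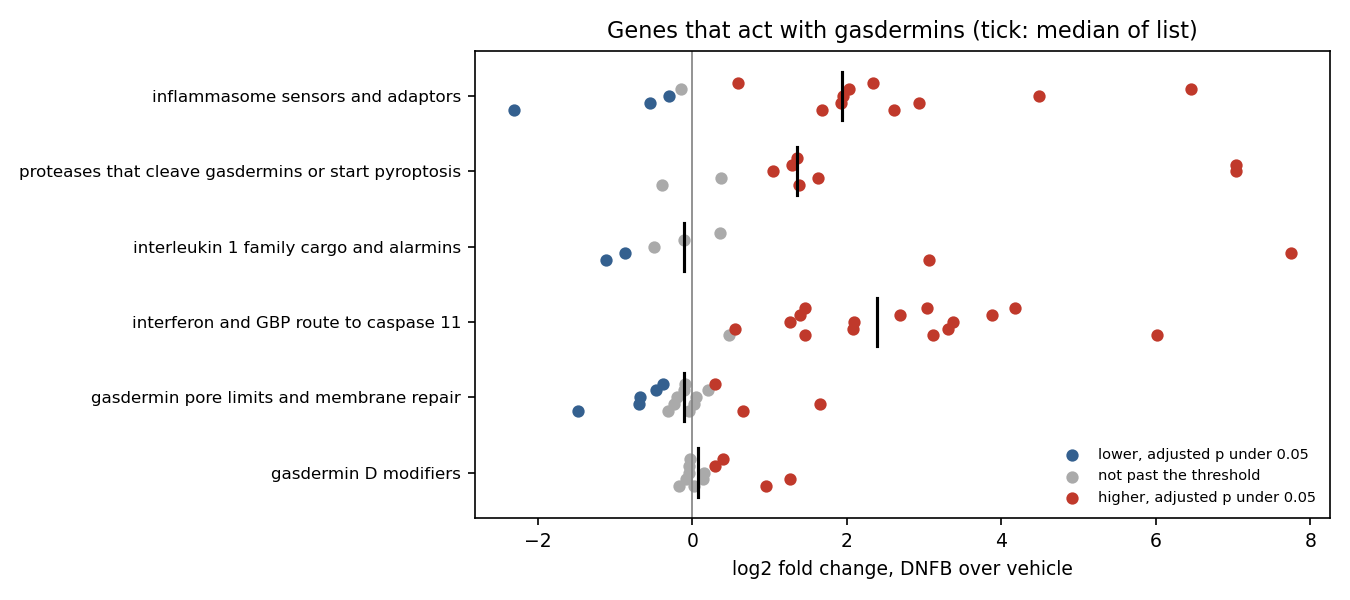
Log2 fold change of DNFB over vehicle (x axis) for the tested genes of 6 lists around gasdermins, red where higher and blue where lower at an adjusted p under 0.05 and grey where not past it, with a black tick at each list's median. Sensors, proteases and the interferon route have medians of 1.94, 1.36 and 2.39, while the medians of the other 3 lists lie between −0.11 and 0.07.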

How the data were processed

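The authors deposited a single expression table (19309 genes). Its columns are, per the file headers, a read count, an FPKM and a TPM for every library, and group means. The deposited counts carry decimals (estimated counts) and were rounded here. Whole values made up 43.7% and 41.6% of the counts in the DNFB ears of mice 2 and 3 and 65.5% to 67.3% in the other libraries. FPKM and TPM in the deposited table are scaled for gene length. HISAT and GRCm39 were used, per the submitters' processing notes. The counting tool is not given in the sources used here. Nor is a strand setting, so counts of overlapping genes may mix. Per the labels, reads of 50 bases came from oligo(dT)-selected RNA.

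DNFB was compared with vehicle ears with edgeR 4.0.16 (R 4.3.3): TMM scaling, filterByExpr (minimum count 10), the quasi-likelihood test, two-sided, no block. The standard error is the absolute log2 fold change over the square root of F. Within-mouse ratios used a prior count of 2. The fit was first checked on simulated counts. Mouse numbers in the titles pair ears of 1 animal. Same-mouse deviations from the group means correlated at −0.027, −0.148 and −0.046.

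Alternatives were the mouse block, DESeq2 1.42.0 or its size factors, upper-quartile factors, 2 filters, limma 3.58.1 (voom, or log2 of TPM or FPKM plus 0.1), and leaving out libraries or mice. Members and lists were chosen with earlier results of these data known. Named were all members, up to 3 called genes per list with the largest change, the most abundant gene that did not pass, and the 3 nearest patterns, of which some results are not reported here. Il36a, Il36g and Irgb10 were matched through older names, the rest directly. Intervals on counts are exact and cover counting error only. Shared 50-base windows came from GENCODE M21 transcripts, either strand.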

Additional observations from a re-analysis of the deposited data

How the results depend on the processing

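Every member kept its direction under each alternative that could test it. Where libraries or mice were left out this was all but fixed beforehand, because the groups did not overlap in CPM. Gsdma2 was not tested with a filter of 1 CPM in 3 libraries. With the mouse as a replicate block the log2 fold change of Gsdma2 was −1.49 and no longer passed (adjusted p = 0.0666), no other member's call changed, and 7 of 8 members passed. Leaving out 1 library or 1 mouse, the members past the threshold numbered 3 to 8 and all genes past it 2594 to 9108. All genes past it were 4487 without mouse 1 and 2594 without mouse 2, when 4 and 3 members passed and, without mouse 2, no A copy. Without 1 library the log2 fold change ranged from −1.99 to −1.13 for Gsdma and −1.78 to −1.12 for Gsdma2. Over all settings that left out a library or a mouse it ranged from −2.13 to −1.06 for Gsdma, −1.85 to −0.88 for Gsdma2, −2.20 to −1.37 for Gsdma3, 0.86 to 1.20 for Gsdme and 0.65 to 0.98 for Ninj1. Without mouse 2 it was −1.21, −1.78 and −1.52 for Gsdma, Gsdma2 and Gsdma3, 0.90 for Gsdme and 0.73 for Ninj1, none past the threshold. Genes called ranged from 7 to 13 among inflammasome sensors, 2 to 12 among membrane repair genes and 2 to 4 among gasdermin D modifiers. With no filter on low counts 2 of the other gasdermin genes passed, Gsdmc2 and Gsdmc4. With the DNFB ear of mouse 1 alone against the 3 vehicle ears, chosen after seeing that the other DNFB libraries held fewer whole counts, all 8 members passed, but only with the lone ear assumed to vary like the vehicle ears. Depth limits Gsdma2, Gsdmc3, Gsdmc4, Pjvk and Ninj2.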
